A study of Mus musculus with 20 samples.

Results

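Hox and Fox genes encode transcription factors that set position and cell fate, and here they were compared between lung metastases and primary tumours of a mouse breast cancer model. The members were the rows of the deposited gene table named Hoxa, Hoxb, Hoxc or Hoxd with a number, or Fox with a letter and a number, other than Foxj1, Foxf1a, Foxm1 and Foxp3, with values in the breast cancer libraries. They came to 45 of the 15465 named genes with such values, 23 Hox and 22 Fox genes. GENCODE M21 lists 39 Hox and 44 Fox protein-coding genes in the mouse, and only those with a row were followed. The groups were 4 lung metastases and 4 primary tumours of bulk tissue, 1 of each from the same 4 mice. All were labelled BC and 4T1 derived, at 28 days, in an orthotopic model, meaning that tumours grew in the organ of origin; 4T1 is an established mouse mammary carcinoma line. No other genotype, agent, strain or age of the mice is given in the labels, and how the metastases were cut from the lung is not stated either. The question set by the study is how metastases differ in expression from the primary tumour of the same mouse.

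Hox genes lie in 4 clusters, Hoxa to Hoxd, and their numbers follow their order along the cluster. Low-numbered genes are switched on early and towards the head of the embryo, high-numbered genes later and towards the tail and the limb tips, and adult tissues, tumours included, keep part of the code of the region they come from. Hoxa5 and Hoxb5 are known for their roles in lung development. Fox proteins share the forkhead DNA-binding domain: FOXA factors open chromatin for lung, liver and breast epithelial genes, FOXF factors act in lung and gut mesenchyme, FOXP factors in lung epithelium and lymphocytes, FOXC factors in vessels and mesoderm, and FOXO factors carry insulin and growth factor signals to genes of arrest, stress and metabolism.

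Values are normalised read counts, meaning reads divided by a scaled library size and brought to a level of 1000000, not corrected for gene length. Depth was 15447918 to 28995834 reads per library, lowest in lung metastasis 3, and a single read was worth 0.0337 to 0.0676. The metastasis libraries held RNA of lung cell types. Summed markers of alveolar type 2 cells were at 4010 to 12544 in lung metastases, against 89.3 to 101 in primary tumours, with 6 of 7 markers higher, and those of airway club cells at 2279 to 22216, against 1.76 to 4.08, with all 4 higher. In the primary tumours no library reached a value of 1 for 5 of the 7 type 2 and 3 of the 4 club markers. These entered the test only through the metastases, so the marker counts are a description only. Lung metastasis 3 had the highest alveolar, club cell, endothelial and neutrophil sums and the lowest sum of tumour and mammary epithelial markers, 877 against 1506 to 3154 in the other metastases. Those epithelial markers lay at 1428 to 2796 in primary tumours, with none of the 8 at 0. In bulk tissue, fewer cells of a type and less RNA per cell cannot be told apart, and the part of lung tissue in the differences below was not tested. Reads of a gene and of an overlapping antisense gene could not be separated, since the library kit is not stated to mark strand.

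Of the 14003 genes tested with limma, 9.13% were called changed between lung metastases and primary tumours at an adjusted p under 0.05, 7.18% higher and 1.96% lower. Of the members 36 were tested and 8 were called. Hoxb5, Foxa2, Foxf2 and Foxp2 rose in lung metastases, and Hoxa2, Hoxd8, Hoxd9 and Foxo1 fell. The test needed values of 1 or more in 4 or more libraries, which 9 members did not reach: Hoxa13, Hoxb3, Hoxb9, Hoxc4, Hoxc6, Hoxc8, Hoxd4, Hoxd10 and Foxo6. Hoxb5, Foxa2, Foxf2 and Foxp2 reached a value of 1 only in metastases, and Hoxd9 only in primary tumours. These 5 members, all called, entered the test only through the group where they were high. Their calls are therefore a description only, and the share of calls among members is not set against that of all genes. Beyond the 8 calls, 28 tested members did not pass, among them 8 at an unadjusted limma p under 0.05. The share of all genes at that level was not worked out, so this count is a description only.

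**Figure D1:**
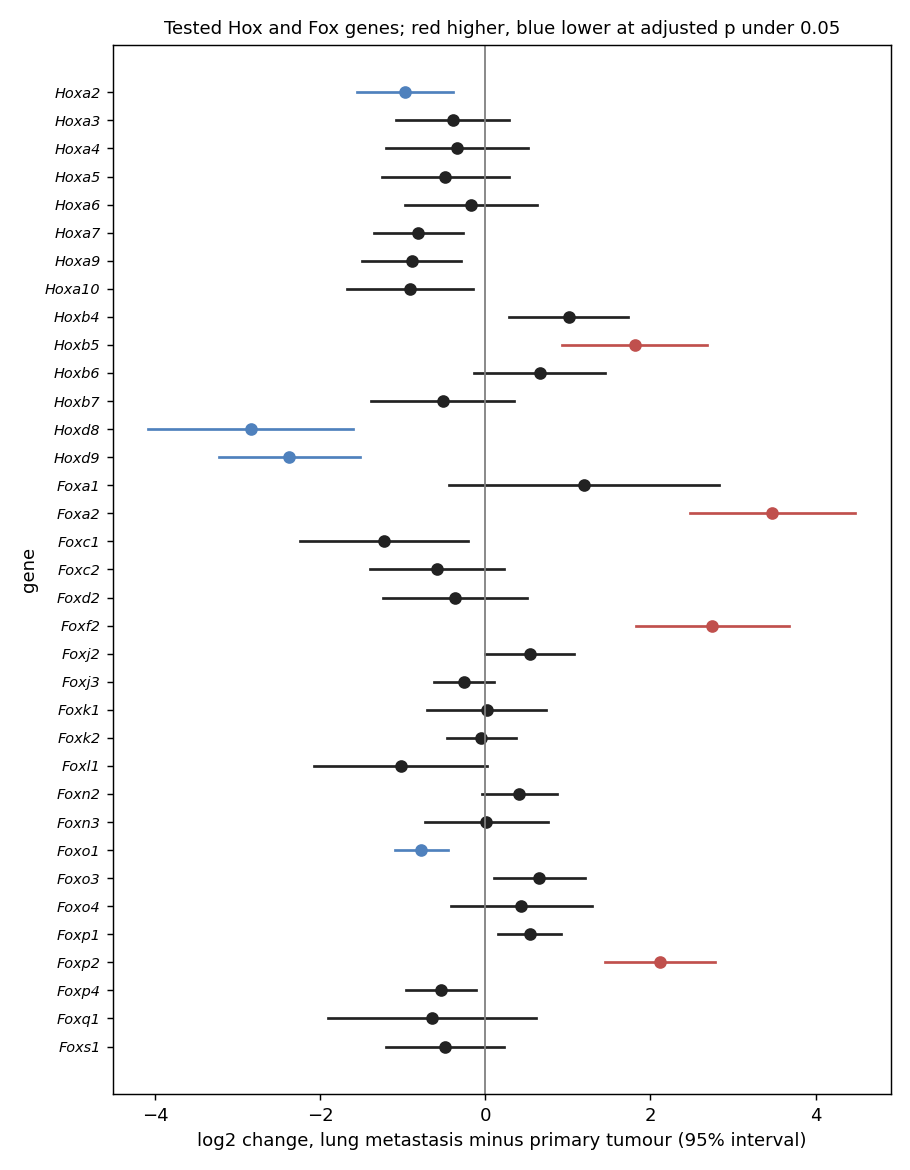
Log2 change, lung metastasis minus primary tumour, on the log2(value + 1) scale for 35 of the 36 tested Hox and Fox genes (points) with 95% intervals from limma (lines). Hoxb5, Foxa2, Foxf2 and Foxp2 (red) lie to the right of 0 and Hoxa2, Hoxd8, Hoxd9 and Foxo1 (blue) to the left at adjusted p under 0.05; black genes did not pass.

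Among the Hox members 5 had a higher and 18 a lower mean in lung metastases, where the share of lower means over all genes was not worked out. All 6 members numbered 9 to 13 (Hoxa9, Hoxa10, Hoxa13, Hoxb9, Hoxd9 and Hoxd10) were lower in every lung metastasis than in every primary tumour. Of the 6, 4 had no read in any metastasis. Every gene with values reached 1 in at least 2 of the 8 libraries, so those 4 have a row only through the primary tumours. Other genes with these numbers, among them Hoxa11, Hoxb13, Hoxc9 and Hoxd11, have no row and were not followed. Over all 15465 genes with values, tested or not, 7.09% were lower without overlap and 10.7% higher without overlap; over the 14003 tested genes the shares were 7.56% lower and 10.4% higher. Of the 10 members numbered 1 to 5, 3 (Hoxb4, Hoxb5 and Hoxc4) were higher without overlap and 1 (Hoxa2) lower, and 4 had a higher and 6 a lower mean. Of the 7 members numbered 6 to 8, 4 were lower without overlap (Hoxa7, Hoxc6, Hoxc8 and Hoxd8) and none higher. Hoxc6 and Hoxc8 also have a row only through the primary tumours, and Hoxb5 and Hoxc4 only through the metastases. The counts by number are a description only. The summed level of numbers 9 to 13 was 27.9 ± 11.7 in lung metastases and 60.3 ± 3.69 in primary tumours (SD, n = 4 each). Most of it was Hoxa10, which averaged 25.9 in lung metastases and 45.2 in primary tumours. Without Hoxa genes this sum was 0 in lung metastases and 9.22 ± 6.03 in primary tumours. Numbers 1 to 5 summed to 217 ± 85.4 in lung metastases and 275 ± 69.5 in primary tumours, with overlap. Most of that was Hoxa5, which averaged 165 in lung metastases and 220 in primary tumours. Sums over members, and position in the cluster, were given no test.

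**Figure D2:**
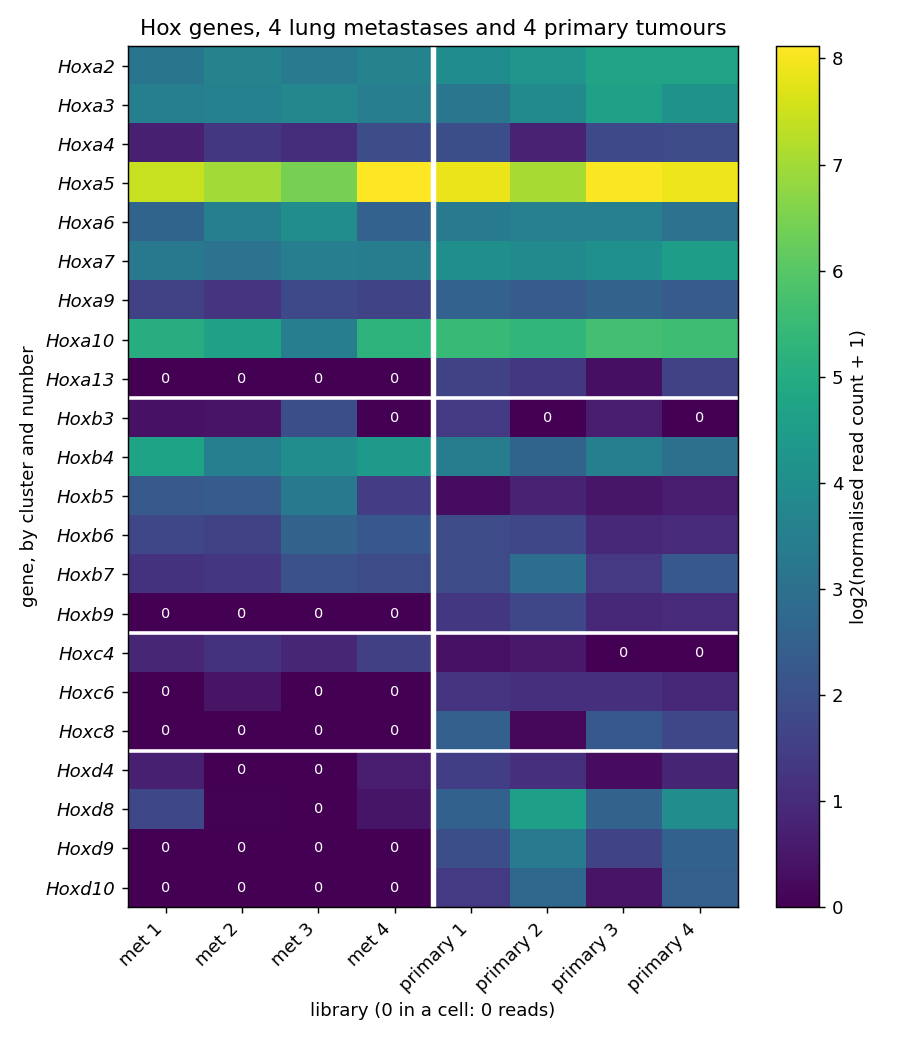
Level of 22 of the 23 Hox genes (rows, by cluster and number) in each library (columns: 4 lung metastases left, 4 primary tumours right), as log2(normalised read count + 1); cells marked 0 hold no read. Hoxa13, Hoxb9, Hoxc8, Hoxd9 and Hoxd10 are at 0 in all 4 metastases, and Hoxa5 is the brightest row in all 8 libraries.

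Reads absent from every metastasis were rare in the table as a whole. Of 15465 genes, 13 (0.0841%) had 0 reads in all 4 lung metastases and at least 3 reads in each primary tumour, and 5 of the 13 were Hox genes, namely Hoxa13, Hoxb9, Hoxc8, Hoxd9 and Hoxd10. The opposite pattern, 0 reads in all primary tumours and at least 3 in each metastasis, held for 0.66% of genes. It held for no Hox or Fox gene. Every gene with values reached 1 in at least 2 libraries, so genes absent from 1 group have a row only through the other. These counts are therefore a description only. A count of 0 allows up to 3 reads per library, a value of 0.107 to 0.203 in the metastases, so these genes were not detectable at this depth; reads carry no molecular identifiers, and such floors cover counting error only.

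The Hoxd cluster is best known for patterning limbs and the urogenital tract. Of the 4 clusters it had the lowest summed level in lung metastases relative to primary tumours. Hoxd4, Hoxd9 and Hoxd10 have a row only through the primary tumours, so this ranking is a description only. Its 4 members summed to 1.00 ± 1.43 in lung metastases and 20.7 ± 14.3 in primary tumours (SD, n = 4 each). Hoxd9 had 0 reads in lung metastases 1 to 4, against values of 2.86, 9.15, 2.19 and 4.79 in primary tumours 1 to 4. The groups did not overlap, and with the floor of 3 reads per library Hoxd9 was at least 34.3-fold lower in lung metastases. Its fitted change was -2.38 on the log2(value + 1) scale (SE 0.385, limma adjusted p = 0.00352), and it was called under all 17 alternative settings that could be fitted. Hoxd8, next to Hoxd9 on the chromosome, had values of 2.41, 0.0356, 0 and 0.378 in the metastases, against 4.73, 23.0, 4.99 and 14.7 in the primary tumours. Every mouse had less in the metastasis, with means of 0.706 ± 1.15 in lung metastases and 11.8 ± 8.76 in primary tumours (SD, n = 4 each), a log2 change of -2.84 (SE 0.559, limma adjusted p = 0.0102). The call on Hoxd8 was lost in edgeR, run on recovered reads (adjusted p = 0.0793).

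Hoxd10, the gene on the tail side of Hoxd9, reached a value of 1 in 3 libraries only and was not tested. It had 0 reads in the 4 metastases, against 1.63, 5.76, 0.337 and 4.54 in the primary tumours, at least 22.1-fold lower. With no filter on low values its limma adjusted p was 0.0449. Hoxd4, the head-side member, had 0.633, 0, 0 and 0.546 in lung metastases, against 1.87, 1.14, 0.202 and 0.775 in primary tumours, which overlapped. Among the primary tumours Hoxd8, Hoxd9 and Hoxd10 shared an order, highest in tumour 2 and next in tumour 4. The summed endothelial and pericyte markers had that order too, at 718 and 363 in tumour 2. In lung metastases, where Hoxd9 and Hoxd10 had 0 reads, these sums were at 460 to 2119 and 111 to 274. The part of these cells in the Hoxd levels was not tested. Adipoq and Lep, markers of the fat around a mammary tumour, also had 0 reads in every metastasis. The summed adipocyte markers were at 120, 1.58, 47.5 and 1.51 in primary tumours 1 to 4, and their part in the Hoxd levels was not tested.

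The start regions of the 3 neighbours are shown because 2 of these genes were called lower and the third had no read in any metastasis, from RefSeq on GRCm38.p6, 250 bases before to 50 after a transcript start on the plus strand, with CG dinucleotides in capitals. Hoxd10 lies at chr2:74691641-74691940, Hoxd9 at chr2:74697513-74697812 and Hoxd8 at chr2:74704365-74704664.
Hoxd10: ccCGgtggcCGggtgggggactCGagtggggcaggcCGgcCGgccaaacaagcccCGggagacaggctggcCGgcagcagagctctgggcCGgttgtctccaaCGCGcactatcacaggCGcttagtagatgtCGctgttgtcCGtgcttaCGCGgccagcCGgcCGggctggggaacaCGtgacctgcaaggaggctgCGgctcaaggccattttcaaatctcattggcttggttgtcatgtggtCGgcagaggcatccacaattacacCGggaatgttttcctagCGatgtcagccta
Hoxd9: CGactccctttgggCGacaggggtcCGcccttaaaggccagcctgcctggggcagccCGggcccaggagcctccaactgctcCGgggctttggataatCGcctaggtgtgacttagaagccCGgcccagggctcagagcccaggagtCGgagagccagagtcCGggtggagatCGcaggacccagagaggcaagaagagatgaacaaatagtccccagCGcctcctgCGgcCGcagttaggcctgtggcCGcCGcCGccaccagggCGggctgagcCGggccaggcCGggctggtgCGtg
Hoxd8: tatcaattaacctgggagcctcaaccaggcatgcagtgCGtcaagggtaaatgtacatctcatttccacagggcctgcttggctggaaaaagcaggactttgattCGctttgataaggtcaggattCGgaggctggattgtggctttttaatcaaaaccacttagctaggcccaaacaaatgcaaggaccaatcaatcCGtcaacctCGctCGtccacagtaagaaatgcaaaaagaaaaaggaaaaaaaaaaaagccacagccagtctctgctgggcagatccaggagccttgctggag
CG dinucleotides are the bases that DNA methylation acts on, and CG-rich starts of developmental genes are usual sites of Polycomb repression. The Hoxd10 and Hoxd9 windows held 22 and 20 of them and the Hoxd8 window 6, where the 32851 mouse windows had a median of 7 and quartiles of 3 and 20. The letters CCAAT, searched on both strands and present in 37.4% of all windows, were found in the Hoxd10 and Hoxd8 windows and not in that of Hoxd9. None of the 3 held TATAAA (13.6% of all windows), the forkhead letters TGTTTAC (3.65%) or the PBX-HOX letters TGATTGAT (0.746%). Methylation and factor binding were not analysed here, and a match of letters is a description only.

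**Figure D3:**
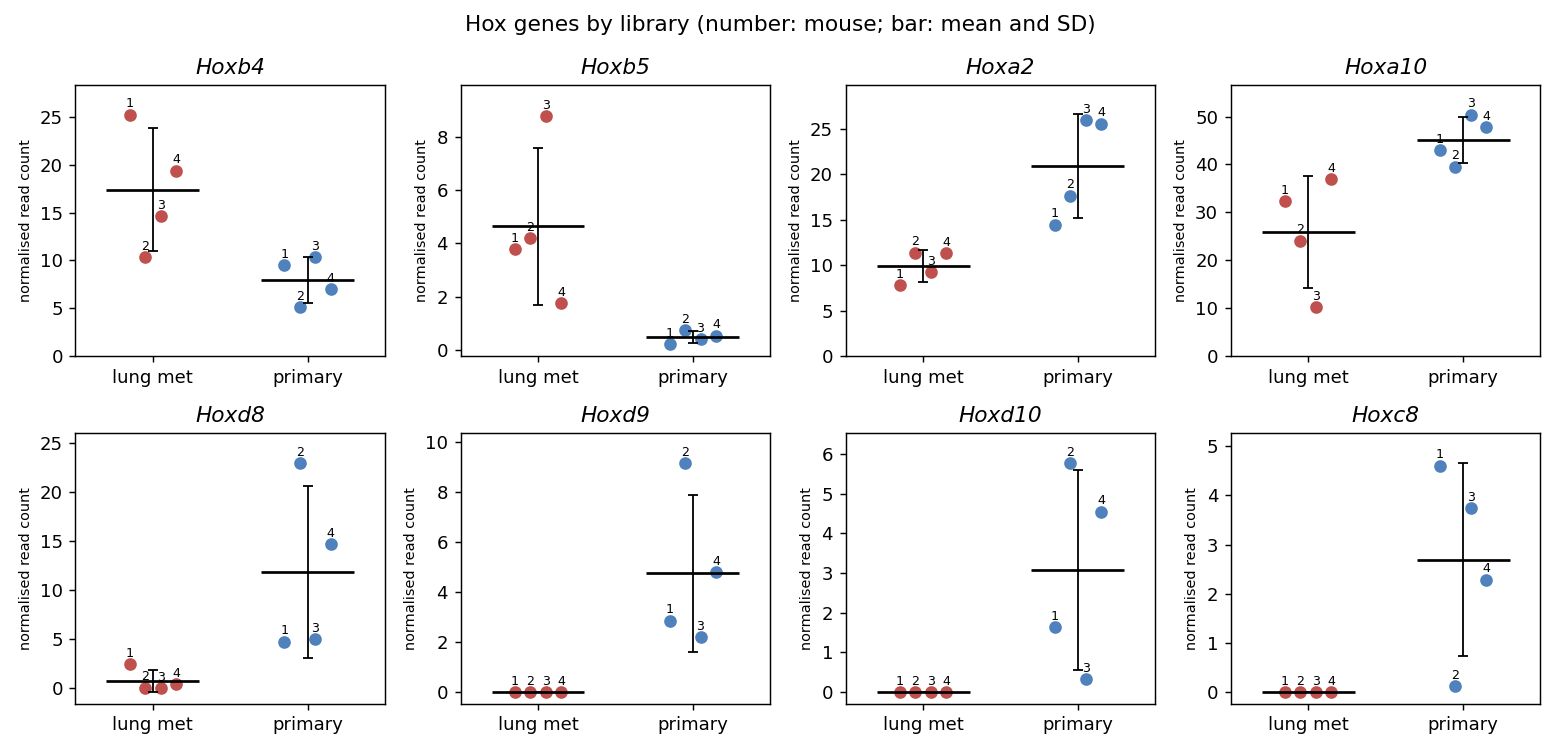
Normalised read count of 8 Hox genes in each library, with lung metastases (red, left) beside primary tumours (blue, right); digits give the mouse, and bars the mean and SD of 4 libraries. Hoxb4 and Hoxb5 are higher in every metastasis than in every primary tumour, and Hoxa2, Hoxa10, Hoxd8, Hoxd9, Hoxd10 and Hoxc8 are lower in every metastasis. For Hoxc8 in primary tumour 2 this rests on 3 reads.

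The Hoxb members differed in direction, where Hoxb5 has a row only through the metastases and Hoxb9 only through the primary tumours. Hoxb5, which acts in lung branching in the mouse embryo, had 3.80, 4.20, 8.79 and 1.76 in lung metastases, against 0.199, 0.749, 0.405 and 0.528 in primary tumours. The means were 4.64 ± 2.97 in lung metastases and 0.470 ± 0.231 in primary tumours (SD, n = 4 each), 9.86-fold apart, with a log2 change of 1.81 (SE 0.394, limma adjusted p = 0.0163). The call was lost without primary tumour 1 (0.0547), primary tumour 3 (0.0501) or primary tumour 4 (0.0520). Over the metastases Hoxb5 was highest in library 3, then 2, 1 and 4, which was also the order of the summed alveolar type 1 and type 2 markers; their part in the Hoxb5 values was not tested. Without lung metastasis 3 the log2 change of Hoxb5 was 1.49 (limma adjusted p = 0.0167).

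Hoxb4, known from blood stem cells, had 25.3, 10.4, 14.7 and 19.4 in lung metastases, against 9.54, 5.09, 10.3 and 6.97 in primary tumours. Lung metastasis 2 and primary tumour 3 nearly met, and the log2 change of 1.01 (SE 0.325) did not pass in limma (adjusted p = 0.0862), whereas DESeq2 on the recovered reads gave 0.0169. The part of lung tissue in the Hoxb4 values was not tested. Hoxb6 and Hoxb7 overlapped between the groups, with log2 changes of 0.66 (95% interval -0.13 to 1.45) and -0.52 (-1.38 to 0.35). Hoxb9, at the tail end of the measured members, had 0 reads in the metastases, against 1.51, 2.29, 0.877 and 0.951 in the primary tumours, at least 10.2-fold lower, and its limma adjusted p without the filter was 0.0269. Hoxb3 had at most 2.91 in any library and overlapped, and it shares 2250 bases of exon with an antisense gene. As a cluster Hoxb summed to 28.3 ± 7.25 in lung metastases and 15.7 ± 2.30 in primary tumours (SD, n = 4 each).

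Hoxc members were all too low for the test. Each has a row only through the group where it was higher, so their directions are a description only. Hoxc4 had 0.830, 1.28, 0.811 and 1.93 in lung metastases, against 0.278, 0.473, 0 and 0 in primary tumours. Every metastasis was above every primary tumour, although no library of a primary tumour reached 1, and the limma adjusted p without the filter was 0.104. Hoxc6, a gene of the thoracic level that is known in the mammary gland, had 0, 0.356, 0 and 0 in lung metastases, against 1.39, 1.14, 1.18 and 0.916 in primary tumours (0.0499 without the filter). Hoxc8 had 0 reads in the metastases, against 4.61, 0.118, 3.74 and 2.29 in the primary tumours, at least 19.4-fold lower in mean (0.0542 without the filter). The 0.118 of primary tumour 2 lies within the 0.107 to 0.203 that 0 reads allow in the metastases. That tumour was therefore not separated from them. Unlike the Hoxd genes, Hoxc8 was lowest in primary tumour 2, at 3 reads, where the summed fibroblast markers were also lowest, at 676 against 1996 to 2192 in the other primary tumours. In lung metastases, with 0 reads of Hoxc8, the summed fibroblast markers were at 1222 to 2380. What those markers contribute to Hoxc8 was not tested.

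**Figure D4:**
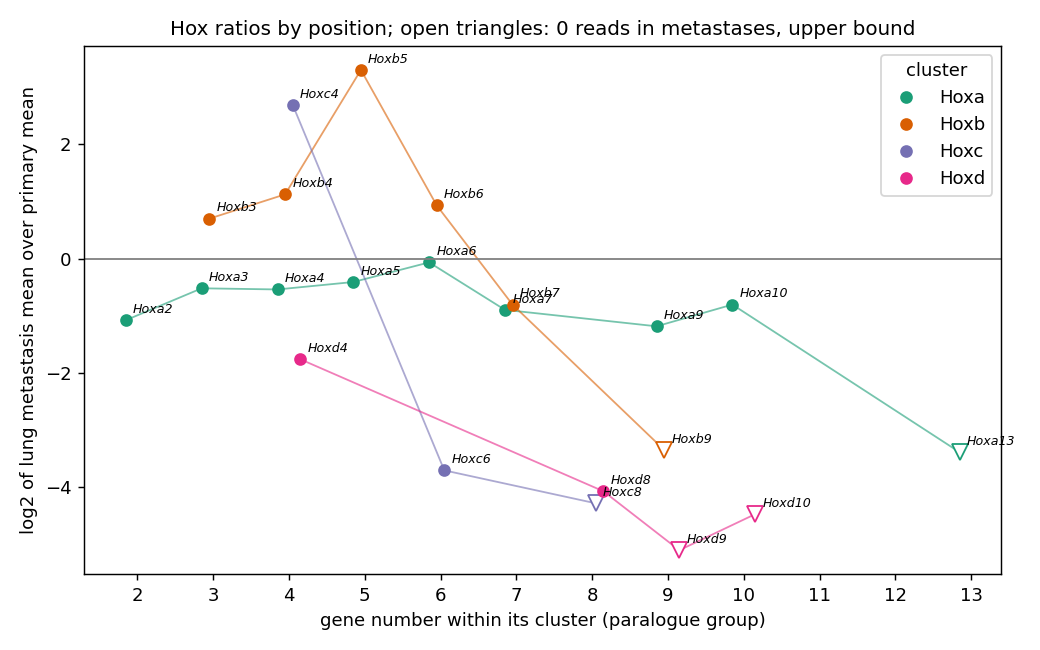
Log2 of the mean in lung metastases over the mean in primary tumours (vertical axis) for 22 of the 23 Hox genes against its number in the cluster (horizontal axis), with a line per cluster. Open triangles mark the 5 genes with 0 reads in lung metastases, drawn at the bound set by 3 reads per library; Hoxb3, Hoxb4, Hoxb5, Hoxb6 and Hoxc4 lie above 0 and the other genes drawn lie below.

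The Hoxa cluster carried most Hox reads in both groups and kept most of its level. All 10 members had a lower mean in lung metastases, 5 of them without overlap, but only Hoxa2 passed the test. Over all genes with values 7.09% were lower without overlap, and 1.96% of the genes tested were called lower. Hoxa13 has a row only through the primary tumours, so the Hoxa counts are a description only. Hoxa5, which is needed for normal lung and trachea formation in the mouse, was the highest Hox gene per kilobase of exon, at 88.2 in lung metastases, against 117 in primary tumours; the next were Hoxa6 at 10.2 in lung metastases and Hoxa10 at 13.8 in primary tumours. Its values were 173, 126, 86.3 and 277 in lung metastases, against 237, 131, 268 and 242 in primary tumours, which overlapped. It made up 46.9% to 70.4% of the summed Hox level in lung metastases, against 44.2% to 62.9% in primary tumours. Its log2 change was -0.49 (95% interval -1.25 to 0.28, limma adjusted p = 0.439).

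Hoxa2, a hindbrain and neural crest gene, fell. It had 7.83, 11.4, 9.19 and 11.3 in lung metastases, against 14.5, 17.7, 26.0 and 25.6 in primary tumours, with a log2 change of -0.98 (SE 0.263, limma adjusted p = 0.0429). The groups did not overlap and every mouse went the same way, but the call rests close to the threshold. It was lost with the mouse as a block (adjusted p = 0.0679), with median-ratio scaling (0.0508) and without lung metastasis 1 (0.114), lung metastasis 2 (0.0696), primary tumour 2 (0.0682), primary tumour 3 (0.141) or primary tumour 4 (0.152).

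Hoxa7, Hoxa9 and Hoxa10 were lower in every metastasis than in every primary tumour but did not pass in limma. With DESeq2 the adjusted p was 0.0133 for Hoxa7 and 0.0151 for Hoxa9, and with array weights in limma it was 0.0109 for Hoxa7, 0.0182 for Hoxa9 and 0.0328 for Hoxa10. Hoxa10, a gene of the uterus and of blood progenitors, had 32.4, 24.1, 10.1 and 36.9 in lung metastases, against 42.9, 39.6, 50.4 and 47.8 in primary tumours (log2 change -0.91, limma adjusted p = 0.138). Lung metastasis 3 was the lowest by far, and without it the log2 change was -0.54 (adjusted p = 0.0910). Hoxa9, whose overexpression drives leukaemia, had 1.98, 1.35, 2.43 and 2.14 in lung metastases, against 4.85, 3.98, 5.02 and 4.09 in primary tumours (adjusted p = 0.0699). Hoxa7 averaged 9.06 ± 1.23 in lung metastases and 16.8 ± 3.89 in primary tumours (SD, n = 4 each; adjusted p = 0.0659), and it passed without lung metastasis 3 (0.0489). At the tail end of the cluster Hoxa13, the gene of the limb tips and hindgut, had 0 reads in the metastases, against 1.99, 1.5, 0.270 and 2.04 in the primary tumours, at least 10.5-fold lower. Hoxa3, Hoxa4 and Hoxa6 overlapped, with limma adjusted p of 0.478 to 0.806. Exons of Hoxa2, Hoxa3, Hoxa4, Hoxa7, Hoxa9, Hoxb5, Hoxd10, Foxf2, Foxj2, Foxo1 and Foxp1 overlap those of a neighbouring or antisense gene in part.

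HOX proteins bind DNA with PBX and MEIS-class partners, and Polycomb and Trithorax complexes hold their genes off or on. Of 9 cofactor genes 8 were tested, and 1 was higher and 1 lower, with a median log2 change of 0.28 where that of all genes tested was -0.06. Meis3 fell to 10.4, 9.68, 6.83 and 13 in lung metastases, against 22.5, 23.0, 21.7 and 28.0 in primary tumours (log2 change -1.20, limma adjusted p = 0.0111), a call lost without primary tumour 4 (0.0520). Pknox2 rose to 9.57, 3.20, 30.4 and 2.61 in lung metastases, against 0, 0.0394, 0 and 0 in primary tumours (adjusted p = 0.0104), and was lost with a pseudocount of 5 (0.0646).

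None of the 14 Polycomb genes and none of the 10 Trithorax or demethylase genes was called by limma, edgeR or DESeq2, with 2 and 1 of them at an unadjusted limma p under 0.05 and median log2 changes of -0.17 and -0.03. The smallest p among them belonged to Bmi1, a subunit of the Polycomb complex that marks histone H2A, at 95.6 ± 32.1 in lung metastases, against 153 ± 23.5 in primary tumours (SD, n = 4 each; limma adjusted p = 0.129), and to Rnf2, its partner enzyme (0.194). In the Trithorax list they belonged to Ash2l (0.186) and Wdr5 (0.294), core subunits of the histone methyltransferase. Retinoic acid is the classical inducer of low-numbered Hox genes, and 2 of the 9 tested genes of its synthesis and reception were higher and none lower, with a median log2 change of 0.34. Both make it: Aldh1a1 averaged 233 ± 151 in lung metastases and 0.488 ± 0.195 in primary tumours (limma adjusted p = 5.42e-06), and Aldh1a2 50.1 ± 25.9 in lung metastases and 0.642 ± 0.898 in primary tumours (0.000127; SD, n = 4 each). Both are expressed in normal lung, and the markers of alveolar cells and of mesothelium (6 of 6 higher) moved with them. Of these 6 mesothelial markers, 5 entered the test only through the metastases, so this count is a description only. The part of these cells in Aldh1a1 and Aldh1a2 was not tested.

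Other homeobox genes gave 3 higher and 1 lower of 22 tested, with a median log2 change of -0.50. In the primary tumours no library reached a value of 1 for Nkx2-1 or Irx5, nor for Pknox2, Aldh1a1 or Gata6 of the other lists, so these 5 entered the test only through the metastases and the counts of their lists are a description only. The lung identity factor Nkx2-1 was at 62.7 ± 59.5 in lung metastases, against 0.0267 ± 0.0329 in primary tumours (SD, n = 4 each; limma adjusted p = 0.000203). Hopx, a marker of alveolar type 1 cells, was at 209 ± 143 in lung metastases, against 6.63 ± 7.15 in primary tumours (0.000618). Irx5 was at 6.01 ± 3.58 in lung metastases, against 0.230 ± 0.410 in primary tumours (0.00385; 0.0565 with edgeR). The repressor Tgif1 was lower, at 51.5 ± 19.6 in lung metastases, against 115 ± 13.6 in primary tumours (0.0282), and its call was lost on leaving out any single primary tumour, with adjusted p up to 0.0936.

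Of the 4 Fox genes called, Foxa2, Foxf2 and Foxp2 were higher and Foxo1 lower. Foxa2, a pioneer factor of the lung and liver epithelium, had 14.8, 10.0, 20.1 and 3.36 in lung metastases, against 0, 0.0394, 0 and 0 in primary tumours. The metastases together held 1032 reads of it and the primary tumours 1 read, a ratio of 1218 with a 95% counting interval of 218 to 48152. That interval treats the reads of a group as pooled and leaves out the spread between mice, from 80 to 374 reads in the metastases. The log2 change was 3.48 (SE 0.453, limma adjusted p = 0.000987), and it was called under all 18 alternatives. Foxf2, a factor of lung and gut mesenchyme, had 6.96, 6.55, 14.1 and 2.69 in lung metastases, against 0, 0, 0.438 and 0.141 in primary tumours, with means of 7.58 ± 4.77 in lung metastases and 0.145 ± 0.207 in primary tumours (SD, n = 4 each). Its log2 change was 2.75 (SE 0.418, limma adjusted p = 0.00247), called under all 17 alternatives that could be fitted.

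Both genes were highest in lung metastasis 3 and then in 1, 2 and 4, and were at or near 0 in the primary tumours. The summed lung mesenchyme markers lay at 230 to 528 in lung metastases, against 39.2 to 292 in primary tumours. Of the 6 markers 5 were higher and none was at 0, and 3 entered the test only through the metastases. The count is therefore a description only. Like the alveolar sums, the mesenchyme sums were highest in lung metastasis 3 and lowest in lung metastasis 4. What lung tissue contributes to Foxa2 and Foxf2 was not tested. Without lung metastasis 3 both calls remained, with log2 changes of 3.17 for Foxa2 (limma adjusted p = 0.000787) and 2.42 for Foxf2 (0.00159).

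**Figure D5:**
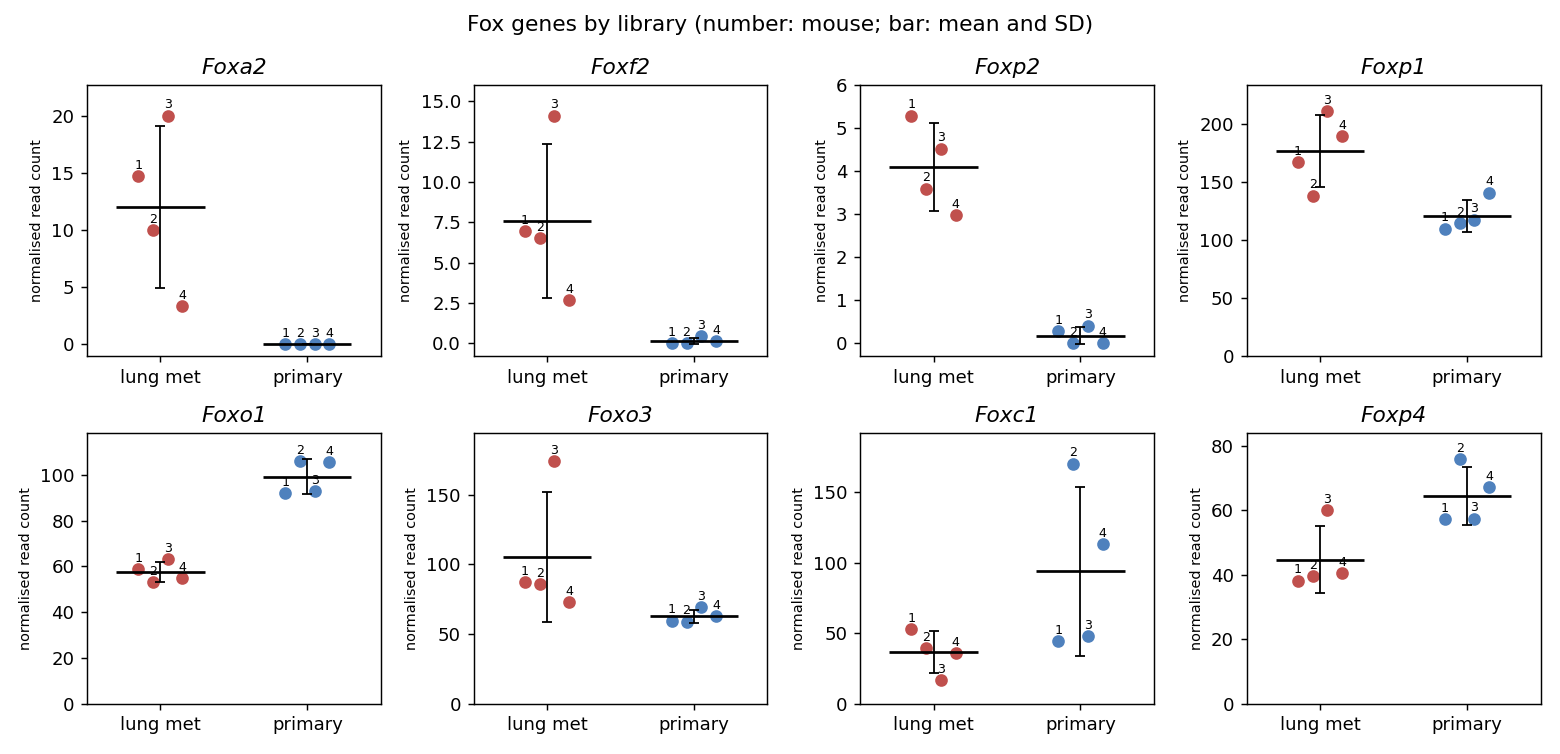
Normalised read count of 8 Fox genes in each library, with lung metastases (red, left) beside primary tumours (blue, right); digits give the mouse, and bars the mean and SD of 4 libraries. Foxa2, Foxf2, Foxp2 and Foxo3 are higher in every metastasis and Foxo1 lower in every metastasis, while Foxp1, Foxp4 and Foxc1 overlap between the groups.

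The start regions of Foxa2 and Foxf2 are shown as those of the 2 Fox genes with the largest fold, from RefSeq on GRCm38.p6 with the same window and capitals. Foxa2 lies on the minus strand, here at chr2:148046920-148047219, the most upstream of 3 listed starts, and Foxf2 on the plus strand at chr13:31625566-31625865.
Foxa2: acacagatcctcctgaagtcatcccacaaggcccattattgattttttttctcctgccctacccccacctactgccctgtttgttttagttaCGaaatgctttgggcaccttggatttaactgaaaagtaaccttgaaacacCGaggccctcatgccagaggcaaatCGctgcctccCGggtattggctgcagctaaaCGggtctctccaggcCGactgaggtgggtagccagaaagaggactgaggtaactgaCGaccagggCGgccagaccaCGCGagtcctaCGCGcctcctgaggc
Foxf2: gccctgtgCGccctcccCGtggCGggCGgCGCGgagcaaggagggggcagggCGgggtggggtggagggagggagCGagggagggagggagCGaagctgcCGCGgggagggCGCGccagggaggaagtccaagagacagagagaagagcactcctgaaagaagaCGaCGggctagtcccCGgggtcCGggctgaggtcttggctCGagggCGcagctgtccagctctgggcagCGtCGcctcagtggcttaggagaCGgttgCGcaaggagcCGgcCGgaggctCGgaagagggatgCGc
These held 12 and 27 CG dinucleotides. CCAAT was found in the Foxa2 window and not in that of Foxf2, and neither held any of the other 3 motifs on either strand. The other 2 Foxa2 windows, with 23 and 13 CG dinucleotides, held no CCAAT, and that with 13 held TATAAA. Among the 27 members matched to a RefSeq start, 32 windows in all, the forkhead letters stood in that of Foxa1 and the PBX-HOX letters in that of Hoxa2.

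Foxa1, the breast pioneer factor that works with the oestrogen receptor, did not pass. It had 6.96, 5.87, 24.2 and 0.714 in lung metastases, against 5.40, 1.58, 2.80 and 0.388 in primary tumours (log2 change 1.19, 95% interval -0.45 to 2.83, limma adjusted p = 0.370). Each metastasis was above its own primary tumour, yet the groups overlapped widely. Of the partners of FOXA factors, 2 of 9 tested were higher and none lower, with a median log2 change of 0.37. Gata6, a lung and gut endoderm factor, was at 17.0 ± 7.50 in lung metastases, against 0.222 ± 0.393 in primary tumours (SD, n = 4 each; limma adjusted p = 0.000191), and Gata2 was at 56.0 ± 53.4 in lung metastases, against 4.52 ± 0.834 in primary tumours (0.00608).

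The FOXP genes differed among themselves. Foxp2, a repressor of the distal lung epithelium in the mouse, had 5.30, 3.59, 4.53 and 2.98 in lung metastases, against 0.278, 0, 0.405 and 0 in primary tumours, with a log2 change of 2.12 (SE 0.300, limma adjusted p = 0.00159) that was called under all 17 alternatives that could be fitted. Its means were 4.10 ± 1.02 in lung metastases and 0.171 ± 0.204 in primary tumours (SD, n = 4 each), 24.0-fold apart. Unlike Foxa2 and Foxf2 it was highest in lung metastasis 1. Foxp1, its relative in lung and in B cells, had 167, 138, 211 and 190 in lung metastases, against 110, 114, 117 and 141 in primary tumours. It was higher in all 4 mice but overlapped by 1 library (log2 change 0.54, limma adjusted p = 0.0881), and DESeq2 gave 0.0282. Foxp4 went the other way, with 38.2, 39.6, 60.1 and 40.5 in lung metastases, against 57.3, 75.7, 57.4 and 67.1 in primary tumours (log2 change -0.54, limma adjusted p = 0.124). Lung metastasis 3 alone overlapped the primary tumours in Foxp4, which passed without it (adjusted p = 0.0126).

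The FOXO genes also parted. Foxo1 fell to 58.8, 53.0, 63.1 and 55.0 in lung metastases, against 92.2, 106, 93.1 and 106 in primary tumours, with narrow groups that lay far apart. The means were 57.5 ± 4.44 in lung metastases and 99.3 ± 7.72 in primary tumours (SD, n = 4 each), a log2 change of -0.78 (SE 0.144, limma adjusted p = 0.00752), called under all 18 alternatives. Foxo3 had 87.3, 86.0, 174 and 72.9 in lung metastases, against 59.6, 58.8, 69.3 and 62.8 in primary tumours. These did not overlap either, but the log2 change of 0.65 did not pass (limma adjusted p = 0.146; 0.0973 and a log2 change of 0.38 without lung metastasis 3). The ratio of Foxo1 to Foxo3 was 0.362 to 0.755 in lung metastases, against 1.34 to 1.81 in primary tumours. Foxo4 stood at 21.7 to 22.8 in 3 metastases and 80.9 in lung metastasis 3, against 19.9 to 27 in primary tumours. Foxo6, not tested, had 1.07, 1.46, 4.39 and 0 in lung metastases, against 0, 0.316, 0 and 0.0705 in primary tumours.

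AKT and SGK kinases, acting below PI3K, keep FOXO proteins out of the nucleus, and none of the 13 genes of that list was called by limma, edgeR or DESeq2 or had an unadjusted limma p under 0.05 (median log2 change -0.03). The smallest p belonged to the kinase gene Akt2, at 81.8 ± 18.5 in lung metastases, against 62.3 ± 1.87 in primary tumours (SD, n = 4 each; limma adjusted p = 0.254). Of 15 genes known as FOXO targets, all tested, 2 were higher and 4 lower, with a median log2 change of -0.02; 2 of the 4 lower calls were lost with the mouse as a block. Klf2, a factor of quiescent endothelium and lymphocytes, was at 174 ± 66.5 in lung metastases, against 40.8 ± 10.9 in primary tumours (limma adjusted p = 0.00102), and the glucose-uptake inhibitor Txnip at 477 ± 198 in lung metastases, against 195 ± 67.8 in primary tumours (0.0307; SD, n = 4 each). Gadd45a, a stress and arrest gene, fell to 92.5 ± 36.9 in lung metastases, against 391 ± 110 in primary tumours (0.00207), and Sesn3, an inhibitor of mTOR complex activity, to 40.3 ± 9.0 in lung metastases, against 78.8 ± 18.5 in primary tumours (0.0272). The call on Txnip was lost without lung metastasis 1 or primary tumour 2, 3 or 4, and that on Sesn3 without lung metastasis 2 or primary tumour 1, 3 or 4, with adjusted p up to 0.104. Of 8 endothelial markers 4 were higher, and their part in Klf2 was not tested.

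FOXC genes were lower on average and did not pass. Foxc1, a factor of mesenchyme, vessels and basal-like breast cancer, had 53.1, 39.3, 17.0 and 36.0 in lung metastases, against 44.3, 170, 48.0 and 113 in primary tumours (log2 change -1.23, SE 0.459, limma adjusted p = 0.137; 0.0372 with DESeq2). Like the Hoxd genes it was highest in primary tumour 2 and then in primary tumour 4. Per kilobase it was the highest of the measured Fox genes in primary tumours, at 16.1, while Foxk2 and Foxo3 led in lung metastases, at 13.9 each. Foxc2, which acts in lymphatic vessels, had 28.5, 19.7, 8.18 and 21.9 in lung metastases, against 31.0, 16.9, 31.7 and 34.0 in primary tumours. Foxl1 and Foxs1, of gut and vascular mesenchyme, averaged 1.46 ± 1.10 and 1.22 ± 0.402 in lung metastases, against 3.89 ± 2.19 and 2.16 ± 0.901 in primary tumours (SD, n = 4 each), and overlapped. FOXF, FOXL1 and FOXC genes are linked to Hedgehog signalling in the mouse, and of 7 tested genes of that pathway none was called by limma or edgeR and 1 by DESeq2, with 2 at an unadjusted limma p under 0.05 and a median log2 change of -0.07. Smo, the signal transducer, had a mean of 57.4 in lung metastases and 94.2 in primary tumours (limma adjusted p = 0.0720). Ptch1, the Hedgehog receptor and itself a target of the pathway, went the other way, at 23.4 ± 16.8 in lung metastases, against 11.0 ± 2.30 in primary tumours (SD, n = 4 each), higher in all 4 mice (log2 change 0.85, limma adjusted p = 0.216).

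The broadly expressed Fox genes did not pass the test. Foxk2, which with Foxk1 restrains autophagy genes, averaged 73.1 ± 15.4 in lung metastases and 74.5 ± 6.99 in primary tumours (SD, n = 4 each), a log2 change of -0.05 with a 95% interval of -0.47 to 0.37. Foxj3 averaged 39.4 ± 2.63 in lung metastases and 47.6 ± 5.92 in primary tumours (limma adjusted p = 0.375), and Foxn2 65.9 ± 14.0 in lung metastases and 49.1 ± 8.90 in primary tumours (0.261; SD, n = 4 each). Foxj2 was higher in every metastasis than in its own primary tumour, at 28.5 to 58.3 in lung metastases, against 23.9 to 30.8 in primary tumours, without passing (0.218). Foxk1 and Foxn3 had log2 changes of 0.01 each. Foxd2 and Foxq1 were low and variable, with at most 1.54 and 11.8 in any library, and Foxq1 shares 3200 bases of exon with an antisense gene.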

How the data were processed

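RNA sequencing of bulk tissue gave 8 libraries of the BC model, 4 lung metastases and 4 primary tumours; 12 libraries of the PDAC (pancreatic) model were not used, since their columns are not aligned with the gene names. The deposited signal values are read counts per gene that the authors divided by a scaled library size and brought to a level of 1000000, from build mm9 per the submitters' processing notes; the tools and annotation used were not given in the sources used here. All deposited values (100%) were whole multiples of 1 read within 0.05 reads, which recovered the reads, and depth limits low genes as given in the report.

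limma 3.58.1 (R 4.3.3) was fitted with a trend to log2(value + 1) with group means only, on 14003 genes that reached 1 in 4 or more of 8 libraries; fold changes on this scale understate low genes. p-values were two-sided with Benjamini-Hochberg adjustment over all genes tested. Simulated data with equal spread in every library checked only that planted changes were recovered, not the p-values. In the main fit the p-values measure the spread between the 4 libraries of each group, unpaired, with a variance moderated over all genes. Alternatives were pseudocounts of 0.1 and 5, no filter, a mean of at least 5, median-ratio and TMM scaling, edgeR 4.0.16 and DESeq2 1.42.0 on recovered reads, array weights, the mouse as a replicate block, and leaving out each library. The sample titles pair a metastasis with the primary tumour of the same mouse; deviations from the group means correlated at 0.0962, -0.151, 0.035 and 0.00655 in the 4 pairs.

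The members and lists were chosen with earlier results of these data known. Named were members called, not overlapping between groups, or at 0 reads in 1 group with at least 3 in each library of the other; the highest of each family; and up to 4 called genes per list, or the 2 smallest p where fewer than 2 were called. Other members were named to account for the rest; 1 member and 1 list gene are counted, but their own values are not reported here. Exon lengths and overlaps came from GENCODE M21 on GRCm38, matched by gene identifier for 43 of 45 members (not Hoxd4 and Foxl1), and start regions from RefSeq by symbol.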

Additional observations from a re-analysis of the deposited data

Results flagged for a closer look

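Among 49 groups of 4 libraries of the 27 named members, 3 held a library whose gap to the nearest other exceeded, over the range of the group, Dixon's 95% critical value, where chance gives about 1 in 20. Foxo3 was at 174 in lung metastasis 3, against 87.3 in the next metastasis, and the same library was the highest in alveolar and neutrophil marker sums. Hoxd8 was at 2.41 in lung metastasis 1, against 0.378 in the next metastasis. Foxa2 was at 0.0394 in primary tumour 2, a single read, against 0 in the other primary tumours. With all others at 0 the gap equals the range whatever the value, so this flag is a description only. The rate of 1 in 20 does not hold for such a group.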

How the results depend on the processing

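Genes called over the whole table numbered 1279, and 1985 with DESeq2, 2283 with array weights and 711 to 1603 with 1 library left out, the lowest being 851, 852 and 711 without primary tumours 1, 3 and 4. The 8 called members became 4 with a mean value of at least 5, 13 with DESeq2, 14 with array weights, 7 with the mouse as a replicate block and 6 to 10 with 1 library left out. The 4 Hox calls became 7 with no filter, 2 with a mean of at least 5, 7 with DESeq2, 8 with array weights and 2 to 5 with 1 library left out. The 4 Fox calls became 2 with a mean of at least 5, and 4 to 5 with 1 library left out. The 16 list calls became 28 with array weights and 10 to 19 with 1 library left out, 10 without primary tumour 4. The direction turned for 6 members, none of them called. Foxd2 was at 0.0341 with array weights, and Foxk2 at 0.00697 with DESeq2, 0.0731 with array weights and -0.138 to 0.112 with 1 library left out, above 0 without lung metastasis 3, on the log2 scale. Foxk1 (-0.24) and Foxn3 (-0.31) turned with array weights and also without lung metastasis 3 (-0.35 and -0.30) or primary tumour 1 (-0.04 and -0.11), Foxk1 without primary tumour 2 (-0.01), Foxo4 without lung metastasis 3 (-0.02), and Hoxa6 without lung metastasis 1 (0.01) or 4 (0.03). Of 405 alternative values of 23 named members 379 kept direction and side of the threshold, and of 395 values of 22 list genes 376. The mouse block changed no named call other than Hoxa2. The causes were not tested. Values of 0 to 3 reads limit Hoxa13, Hoxb9, Hoxc8, Hoxd9, Hoxd10 and Foxa2, whose fold in 1 group rests on few or no reads.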

Other observations

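The other 8 genes with 0 reads in every lung metastasis and at least 3 in each primary tumour were Crabp1, Gzme, Ebf3, Fam5c, Lingo4, H2-M9, Lin7a and Snora78, chosen after their values were seen. Crabp1, which binds retinoic acid in the cytoplasm, had 17.8, 2.09, 15.9 and 22.8 in primary tumours 1 to 4 and was lowest in primary tumour 2, like Hoxc8. Gzme, a granzyme of cytotoxic lymphocytes, had 3.54, 33.4, 4.69 and 3.63 in primary tumours and was highest in primary tumour 2, like the Hoxd genes. Ebf3, a transcription factor of mesenchymal and neural cells, had 0.795, 2.84, 3.57 and 3.63 in primary tumours.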
